A study of Arabidopsis thaliana with 57 samples.

Results

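The 10 genes described here carry the phytochrome branch of light and shade signalling in Arabidopsis thaliana, out of 32824 gene identifiers measured by RNA sequencing of leaves. They were chosen by name and function, not by a measured value, and are the photoreceptors PHYA (AT1G09570) and PHYB (AT2G18790), the phytochrome interacting factors PIF1 (AT2G20180), PIF3 (AT1G09530), PIF4 (AT2G43010), PIF5 (AT3G59060) and PIF7 (AT5G61270), their inhibitors HFR1 (AT1G02340) and PAR1 (AT2G42870), and the shade response gene ATHB2 (AT4G16780). All 10 passed the filter on low values and were tested in both experiments. The levels are FPKM (fragments scaled to transcript length and to the mapped fragments of the library), and 3 libraries were made per group, each from leaves pooled over 10 to 15 plants.

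The contact experiment had 3 groups of wild-type (Col-0) plants, namely plants kept apart from any other plant, plants touching for 1 h and plants touching for 1 week. The chain experiment had 16 groups from chains of 3 touching plants, sampled at the local leaf and at systemic leaves 1, 2 and 3. Every plant of the 3WT chain was wild type. In the WT-hpca1-WT chain, called the mixed chain here, the middle plant was the mutant hpca1-1, so that its systemic leaf 2 was hpca1-1 and its other leaves were wild type. HPCA1 is a receptor kinase that senses hydrogen peroxide outside the cell. For elevated light, 2000 µmol photons per m² and s were given to the local leaf for 30 min, and the control groups of both chains received none. All plants had been grown under 50 µmol photons per m² and s, and touching leaves were joined by a buffered agarose solution that the separate plants did not receive, so contact and solution cannot be told apart. The labels give no time of day and no growth or sequencing batch.

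Phytochromes are red and far-red photoreceptors that switch between an inactive and an active form. In light the active form enters the nucleus and inactivates the PIFs, basic helix-loop-helix transcription factors that bind the G-box and promote elongation. Canopy shade lowers the share of active phytochrome B, and PIF4, PIF5 and PIF7 then switch on genes such as ATHB2, while HFR1 and PAR1, which pair with PIFs and do not bind the G-box themselves, act as a brake. Phytochrome A protein is abundant in the dark, is degraded in light and responds to far-red light.

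The 300 bases before the transcription start are shown for 4 members because PHYA and PAR1 were lower in elevated light at every position tested, while PHYB and PIF5 are the members whose window holds the G-box letters CACGTG. They were read from the TAIR10.1 assembly and are printed 5′ to 3′ on the strand of the gene, at chr1:3100820-3101119 (minus strand) for PHYA, chr2:17837619-17837918 (minus strand) for PAR1, chr2:8139456-8139755 (plus strand) for PHYB and chr3:21830838-21831137 (minus strand) for PIF5. Capitals mark CACGTG, which reads the same on both strands.
PHYA: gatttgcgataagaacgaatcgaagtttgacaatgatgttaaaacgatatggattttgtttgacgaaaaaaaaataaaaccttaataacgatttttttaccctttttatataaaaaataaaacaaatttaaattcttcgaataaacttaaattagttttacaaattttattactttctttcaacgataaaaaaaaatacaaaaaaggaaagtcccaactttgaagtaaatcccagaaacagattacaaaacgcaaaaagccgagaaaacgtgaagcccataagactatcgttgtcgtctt
PAR1: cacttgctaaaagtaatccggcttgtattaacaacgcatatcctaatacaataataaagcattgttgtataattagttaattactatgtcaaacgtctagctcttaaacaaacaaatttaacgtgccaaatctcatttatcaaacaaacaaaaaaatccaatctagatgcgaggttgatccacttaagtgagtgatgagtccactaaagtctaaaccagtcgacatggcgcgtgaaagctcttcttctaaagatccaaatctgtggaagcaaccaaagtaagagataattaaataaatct
PHYB: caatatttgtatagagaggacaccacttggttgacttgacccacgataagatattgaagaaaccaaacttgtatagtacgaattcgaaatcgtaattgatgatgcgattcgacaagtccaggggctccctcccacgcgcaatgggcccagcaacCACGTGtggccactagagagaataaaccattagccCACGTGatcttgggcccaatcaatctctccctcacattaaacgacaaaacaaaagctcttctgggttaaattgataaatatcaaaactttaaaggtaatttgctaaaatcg
PIF5: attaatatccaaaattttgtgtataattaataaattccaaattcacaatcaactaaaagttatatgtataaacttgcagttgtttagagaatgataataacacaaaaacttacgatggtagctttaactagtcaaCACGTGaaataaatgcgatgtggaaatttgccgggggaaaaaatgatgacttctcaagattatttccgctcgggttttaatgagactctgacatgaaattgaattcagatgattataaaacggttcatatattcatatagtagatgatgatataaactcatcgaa
The CACGTG letters began 146 and 111 bases before the start of PHYB and 165 bases before that of PIF5. They were found in the windows of 2 of 10 members, and in 7.09% of the 27443 protein-coding windows of the same length. The related letters CACATG, searched on both strands, were in no window of a member and in 13.1% of all windows. These are matches of letters in a short window and not measured binding sites.

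PIF5 and PIF4 were the most abundant members. Over the 48 chain libraries the mean level was 109 FPKM for PIF5, 99.3 for PIF4, 33.2 for PIF7, 25.2 for PHYB, 25.1 for PHYA, 15.2 for PIF1, 13.1 for ATHB2, 5.04 for PIF3, 2.99 for PAR1 and 2.45 for HFR1. PIF5 was above PIF4 in 46 of 48 libraries, and PIF4 was above PIF7 in 48 of 48. PHYB was above PHYA in 20 of 48 libraries, PIF1 above ATHB2 in 33 and PAR1 above HFR1 in 33, so the order within these pairs was not fixed. PIF4 and PIF5 together held 78.0% to 81.9% of the summed FPKM of the 5 PIFs. In the 9 contact libraries they held 77.3% to 79.8%. There HFR1, with a mean of 8.03 FPKM, was above PIF3 (3.36) and PAR1 (2.57) in 9 of 9 libraries. The tables were normalized separately, so levels are not compared between them.

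Summed FPKM ran from 745054 to 804428 per library over both tables, and 16418 to 17374 genes reached 1 FPKM. HPCA1 had 24.2 to 33.3 FPKM in the 6 hpca1-1 libraries and 43.4 to 61.4 in the 42 wild-type chain libraries, so its mRNA was lower in, and not absent from, the mutant. None of 9 root, flower and seed markers reached 1 FPKM in any library. The highest value among them was 0.435, and 4 were at 0 throughout. Replicate 3 of the control group at systemic leaf 3 of the mixed chain stood apart. Over genes, its log2 difference from the other replicates of that group had an SD of 0.272 and 0.260, and no other pair of replicates in the chain table exceeded 0.189. PIF1 and PIF7 overlap a gene on the opposite strand (AT2G20170 and AT5G61260) and the strand of the libraries is not stated, so reads there cannot be told apart, but those neighbours had at most 0.0725 and 0.584 FPKM.

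**Figure D1:**
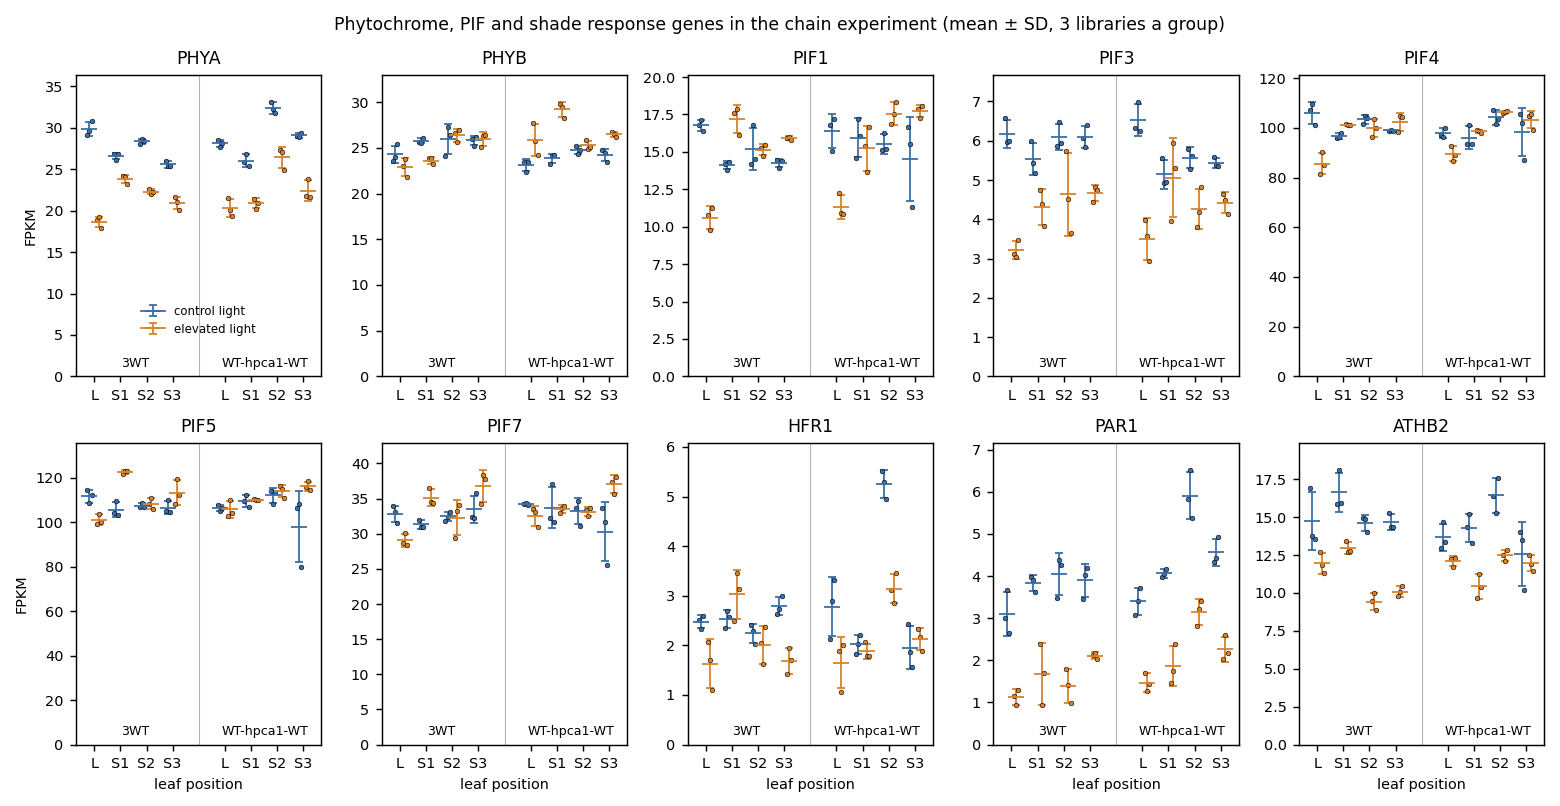
FPKM of the 10 genes (y axes, from 0) by leaf position (x axes: L, local leaf; S1 to S3, systemic leaves) in the 3WT chain (left of the line) and the mixed chain (right), in control light (blue) and elevated light (orange). Points are libraries, horizontal ticks are means and bars are SD (n = 3); PAR1 in elevated light sits below its control group at all 8 positions, and HFR1 in the hpca1-1 leaf in control light reaches 5.25 FPKM.

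PAR1, the inhibitor of PIFs, had the largest change of the 10 members in each of the 8 comparisons of elevated with control light. It fell in the lit leaf and in every systemic leaf of both chains. In the lit leaf of the 3WT chain PAR1 had 1.15, 0.930 and 1.31 FPKM, against 3.01, 3.66 and 2.64 in control light. At systemic leaf 2 of that chain it had 1.79, 1.42 and 0.977 against 3.47, 4.38 and 4.26 FPKM. At no position did the 2 light groups overlap. The log2 changes, on the log2(FPKM + 1) scale, which understates changes of low genes, were -0.94 (SE 0.13), -0.89, -1.08 and -0.65 from the local leaf to systemic leaf 3. The mixed chain gave -0.83, -0.83, -0.74 and -0.77. The adjusted p-values from limma were between 2.37e-08 and 0.000257 over the 8 comparisons. As a ratio of mean FPKM, the lit leaf of the 3WT chain held 0.363 of its control level and systemic leaf 3 held 0.542. The hpca1-1 leaf had the highest control level, 5.83, 6.51 and 5.39 FPKM, and held 2.82, 3.22 and 3.40 FPKM in elevated light. Bulk RNA cannot tell fewer cells that make a transcript from less of it per cell.

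PHYA, the phytochrome of far-red responses, was the other member lower at all 8 positions. In the lit leaf of the 3WT chain it had 18.8, 19.2 and 18.0 FPKM, against 29.1, 29.7 and 30.8 in control light, a change of -0.65 (SE 0.037; adjusted p = 1.19e-17). The systemic leaves of that chain changed by -0.15, -0.33 and -0.28. Those of the mixed chain changed, with its lit leaf first, by -0.45, -0.31, -0.28 and -0.36, and the ranges of the light groups did not overlap at any position of either chain. Of all 18735 genes tested, 221 were called lower in all 8 comparisons, PHYA and PAR1 among them. The 4 comparisons of a chain do not share libraries, but its 4 leaf positions lay on 3 touching plants, so they are not independent.

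PHYB, the main photoreceptor of shade, did not follow PHYA. In the 3WT chain its light changes were -0.08, -0.12, 0.02 and 0.01, and the value at systemic leaf 1 passed the test (adjusted p = 0.0306). That call was lost when any 1 of the 6 libraries compared was left out, with changes of -0.13 to -0.11. PHYB rose in the lit leaf of the mixed chain, from 23.5, 22.3 and 23.5 to 27.7, 25.7 and 24.2 FPKM (0.16, SE 0.040; adjusted p = 0.000995). It also rose at systemic leaf 1, from 23.3, 24.1 and 24.2 to 29.8, 29.5 and 28.3 FPKM (0.28; adjusted p = 3.79e-07). The change of 0.12 at systemic leaf 3 passed the test, but not without control replicate 3 (0.10) or elevated-light replicate 1 (0.12), or with only the compared groups fitted. The ratio of PHYA to PHYB in the local leaf moved from 1.21 to 1.24 in the control libraries of the 3WT chain to 0.806 to 0.824 in elevated light. The mixed chain went from 1.20 to 1.24 down to 0.779 to 0.799. PHYA was therefore above PHYB in every local leaf in control light and below it in every lit leaf.

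**Figure D2:**
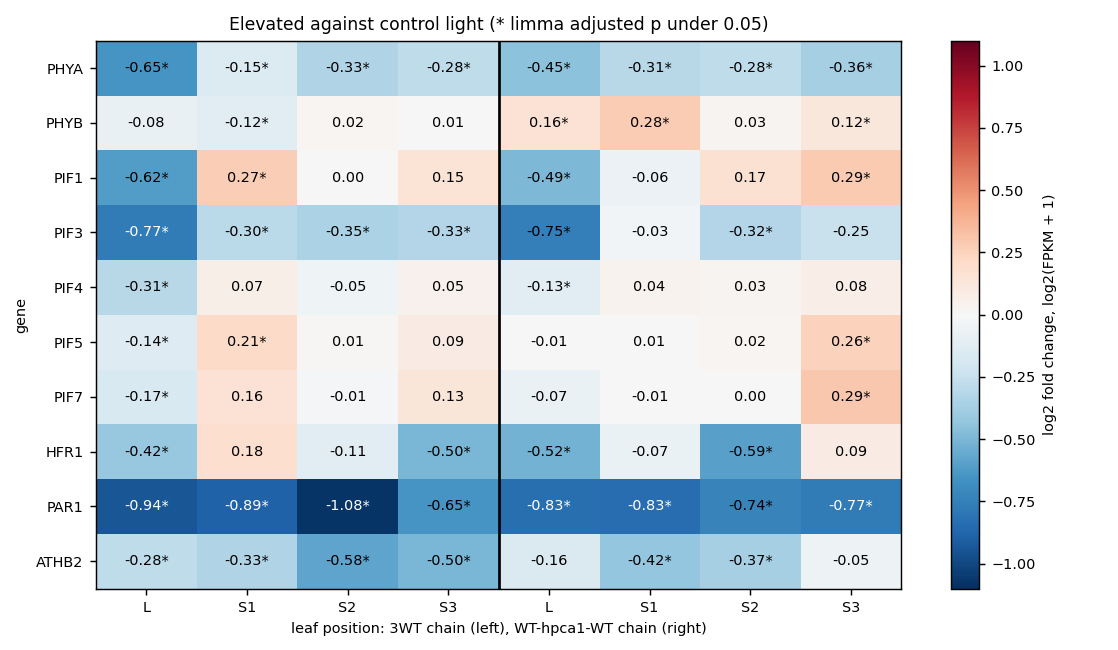
Change in elevated against control light for each gene (rows) at each leaf position of the 3WT chain (left) and the mixed chain (right); colour and number give the log2 fold change on the log2(FPKM + 1) scale, and an asterisk marks an adjusted p under 0.05. PAR1 and PHYA are lower in all 8 columns, and PIF3 is the most lowered PIF in both lit leaves (-0.77 and -0.75).

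In the lit leaf of the 3WT chain 9 of the 10 members were called and all 9 were lower, where 59.3% of all genes were called and 45.3% were called lower. The median change was -0.36 over the members and -0.16 over all genes. The mixed chain had 7 members called there, 6 lower and PHYB higher, where 62.5% of all genes were called and 48.9% were called lower, with medians of -0.31 and -0.19. Lower calls made up 76.3% and 78.2% of all calls in these leaves as deposited, and 51.0% and 50.6% after median-of-ratios scaling, and the median of all genes moved to -0.03 and -0.02, so small changes here depend on the scale. PIF3, a regulator of greening in seedlings, fell from 6.57, 5.96 and 5.99 to 3.12, 3.05 and 3.49 FPKM in the 3WT chain (-0.77; adjusted p = 4.33e-08). PIF1, a repressor of germination and chlorophyll synthesis, fell from 16.8, 17.1 and 16.4 to 10.8, 9.79 and 11.3 FPKM (-0.62; adjusted p = 3.88e-08). Neither gene's light groups overlapped. PIF3 changed by -0.75 in the mixed chain and PIF1 by -0.49. With the all-gene median subtracted, the changes in the 3WT chain were -0.60 for PIF3 and -0.45 for PIF1.

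The 3 abundant PIFs, which promote elongation in shade and warmth, moved less in the lit leaf. PIF4 fell from 107, 110 and 101 to 81.5, 90.1 and 85.2 FPKM in the 3WT chain (-0.31; adjusted p = 2.02e-07), or -0.14 once the all-gene median was subtracted. PIF4 changed by -0.13 in the mixed chain and passed the test, but its change was 0.07 after median-of-ratios scaling. That call was also lost without control replicate 3 (-0.11) or elevated-light replicate 2 (-0.10). PIF5 changed by -0.14 and PIF7 by -0.17 in the 3WT chain, or 0.02 and -0.01 once the same median was subtracted. After median-of-ratios scaling they were 0.01 and -0.02 and neither was called, and PIF7 was not called under quantile normalization (-0.13). Both calls were also lost when control replicate 1 or elevated-light replicate 1 or 3 was left out. The PIF5 call was lost without control replicate 3 as well, and the PIF7 call without control replicate 2. In those fits PIF5 was between -0.14 and -0.13 and PIF7 between -0.16 and -0.15. Neither was called in the mixed chain, where PIF5 held 0.995 and PIF7 0.950 of the control mean FPKM. After median-of-ratios scaling PIF5 was called higher there (0.19; adjusted p = 0.00438 by limma).

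Systemic leaves had no common direction among the PIFs. In the 3WT chain 7 of the 10 members were called at systemic leaf 1, where 14.8% of all genes were called, 4 at systemic leaf 2 (41.2%) and 5 at systemic leaf 3 (23.0%). All calls at the last 2 leaves were lower, where 32.7% and 14.1% of all genes were called lower. PIF5 rose at systemic leaf 1, from 104, 110 and 103 to 122, 123 and 123 FPKM (0.21; adjusted p = 0.00559), and the groups did not overlap. PIF1 rose there from 14.2, 13.8 and 14.3 to 17.6, 17.9 and 16.1 FPKM (0.27; adjusted p = 0.0188), the reverse of its direction in the lit leaf. The PIF1 call was lost without control replicate 2 or elevated-light replicate 1 or 2, at 0.24 to 0.25. PIF3 was lower at the 3 systemic leaves, by -0.30, -0.35 and -0.33. Its call at systemic leaf 1 was lost without control replicate 1 or 2 or elevated-light replicate 2 or 3 (-0.31 to -0.23), without the filter, under quantile normalization (-0.27) and with only the compared groups fitted. That of PIF3 at systemic leaf 2 was lost without elevated-light replicate 3 (-0.22), under median-of-ratios scaling (-0.25) and quantile normalization (-0.19) and with only the compared groups fitted. That at systemic leaf 3 was lost without control replicate 3 or elevated-light replicate 1 (-0.30 for both) and under quantile normalization (-0.27). At systemic leaf 2 the median of all genes was -0.12 and lower calls were 79.3% of all calls, against 51.0% after median-of-ratios scaling, which moved that median to -0.02.

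The mixed chain had 4 members called at systemic leaf 1 (29.5% of all genes), 5 in the hpca1-1 leaf (17.9%) and 6 at systemic leaf 3 (27.5%). All 5 in the hpca1-1 leaf were lower (11.7% of all genes were), namely PAR1, HFR1, ATHB2, PIF3 and PHYA. PIF3 changed by -0.32 there, a call lost without control replicate 1 or 3 or elevated-light replicate 1 or 2 (-0.32 to -0.26), under quantile normalization (-0.26) and with only the compared groups fitted. PIF7 rose at systemic leaf 3, from 33.7, 31.6 and 25.6 to 37.4, 35.7 and 38.1 FPKM (0.29), PIF5 by 0.26 and PIF1 by 0.29. The third control value of PIF7 came from the library that stood apart. Without that library the changes were 0.18 for PIF7, 0.12 for PIF5 and 0.13 for PIF1, and PIF1 was no longer called. With only the compared groups fitted, none of these 3 was called (adjusted p of 0.138 for PIF7, 0.249 for PIF5 and 0.256 for PIF1 by limma). Lower calls made up 68.4% of all calls at systemic leaf 1 and 65.3% in the hpca1-1 leaf, against 53.2% and 52.4% after median-of-ratios scaling.

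HFR1, a brake on PIFs that is itself a shade response gene, was lower in both lit leaves. In the 3WT chain it went from 2.51, 2.34 and 2.59 to 2.08, 1.70 and 1.11 FPKM (-0.42; adjusted p = 0.00569), a call lost without elevated-light replicate 3 (-0.27), under quantile normalization (-0.27) and with only the compared groups fitted (adjusted p = 0.0524). The mixed chain went from 2.13, 2.89 and 3.33 to 1.88, 1.06 and 2.00 FPKM (-0.52; adjusted p = 0.000712), a call lost with only the compared groups fitted (adjusted p = 0.0575). Both pairs of groups stood apart without overlap. Further along it fell in the 3WT chain at systemic leaf 3 (-0.50) and in the hpca1-1 leaf, from 5.51, 5.29 and 4.95 to 3.12, 2.86 and 3.46 FPKM (-0.59; adjusted p = 0.000796). At the other 4 positions the values were 0.18, -0.11, -0.07 and 0.09, and none passed the test.

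ATHB2, a homeodomain-leucine zipper transcription factor and classical marker of shade, was lower in 6 of the 8 comparisons. Of all 18735 genes tested, 992 (5.29%) were called lower in at least 6 of them. Of the 8, the largest change was that of systemic leaf 2 in the 3WT chain, from 15.0, 14.9 and 14.0 to 9.45, 9.97 and 8.87 FPKM (-0.58; adjusted p = 1.35e-07). It was larger than in the lit leaf of that chain, where ATHB2 changed by -0.28, although this difference between positions was not tested. The lit-leaf call was lost without control replicate 1 (-0.18), under both scaling alternatives (-0.13 and -0.17) and with only the compared groups fitted. Systemic leaves 1 and 3 of the 3WT chain changed by -0.33 and -0.50. ATHB2 changed by -0.42 at systemic leaf 1 of the mixed chain and by -0.37 in the hpca1-1 leaf, and these groups did not overlap. The lit leaf (-0.16) and systemic leaf 3 (-0.05) did not pass the test. At that systemic leaf 3 ATHB2 had 14.0, 13.5 and 10.2 FPKM in control light and 12.5, 11.9 and 11.5 in elevated light. The third control value came from the library that stood apart, and the other control values lay above all elevated-light values.

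The light response itself differed between the chains for a few members. At the local leaf 3 of 10 members were called in the test of that difference (15.3% of all genes), with PHYB 0.24, PHYA 0.20 and PIF4 0.18 higher in the response of the mixed chain. Systemic leaf 1 had 3 (23.2%), PHYB at 0.40 (SE 0.056; adjusted p = 4.38e-07), PIF1 at -0.33 and PHYA at -0.15. At systemic leaf 2, where wild-type and hpca1-1 leaves are compared, no member was called by limma (18.8% of all genes were), and HFR1 alone had an unadjusted p under 0.05 (-0.48; adjusted p = 0.0623). ATHB2 (0.44) and HFR1 (0.59) were called at systemic leaf 3, where 14.1% of all genes were. Lower calls made up 63.9%, 66.5% and 31.2% of all calls at the local leaf and systemic leaves 1 and 2, against 51.7%, 51.6% and 58.1% after median-of-ratios scaling, which left PHYB called at systemic leaf 1 and ended the calls of PHYA and PIF1 there. The PIF4 call at the local leaf, those of PHYA and PIF1 at systemic leaf 1 and that of HFR1 were lost without single libraries, and those of PHYB and PIF4 at the local leaf and of both genes at systemic leaf 3 with only the compared groups fitted, whose values are given with the differences between chains in the closing section.

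In control light the hpca1-1 leaf had more HFR1, PAR1 and PHYA than the wild-type leaf at the same position, 3 members called where 20.3% of all genes were. HFR1 was at 5.51, 5.29 and 4.95 FPKM in hpca1-1 and at 2.42, 2.28 and 2.03 in the wild type, with no overlap (0.95, SE 0.13; adjusted p = 4.87e-07). This was 2.34 times the wild-type mean. PAR1 was at 5.83, 6.51 and 5.39 against 3.47, 4.38 and 4.26 FPKM (0.46; adjusted p = 0.0114), a call lost without wild-type replicate 1 (0.37) or hpca1-1 replicate 2 (0.40). PHYA was at 33.1, 32.2 and 31.7 against 28.1, 28.6 and 28.4 FPKM (0.18; adjusted p = 0.000235). It was also 0.18 higher in the mixed chain at systemic leaf 3, where both leaves were wild type. For all 3 genes the hpca1-1 leaf in control light had the highest mean of the 16 groups. HPCA1 itself differed by -1.08 between these groups. Lower calls were 61.4% of all calls here, and 49.9% after median-of-ratios scaling.

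Compared with the wild-type local leaf of its own chain in control light, the hpca1-1 leaf was again higher in HFR1 (0.74), PAR1 (0.65), PHYA (0.20) and ATHB2 (0.25), 4 members where 21.0% of all genes were called. The ATHB2 call was lost without local replicate 1 or 3 or hpca1-1 replicate 3 (0.20 to 0.23) and with only the compared groups fitted. The matching comparison within the 3WT chain called no member by limma (8.86% of all genes), with PHYB and PAR1 at an unadjusted p under 0.05. Lower calls were 61.8% and 38.3% of all calls in these comparisons, against 46.9% and 53.3% after median-of-ratios scaling. The 2 comparisons with the hpca1-1 leaf share its libraries. Genotype and place in a mixed chain cannot be told apart, since no chain of hpca1-1 plants alone was analysed here.

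Between wild-type leaves of the chains in control light, no member was called at the local leaf (12.8% of all genes) or at systemic leaf 1 (15.1%). At an unadjusted p under 0.05 there were 2 at the local leaf, PHYA and PIF4, and 3 at systemic leaf 1, PHYB, PIF1 and ATHB2. Systemic leaf 3 had 3 (17.3%), with PHYA 0.18 higher in the mixed chain, at 29.0, 28.9 and 29.4 against 26.1, 25.4 and 25.4 FPKM. HFR1 (-0.37) and ATHB2 (-0.22) were called lower. The HFR1 call was lost without any control replicate of the 3WT chain, or replicate 2 or 3 of the other (-0.40 to -0.27). The ATHB2 call was lost without any control replicate of the 3WT chain (-0.23 to -0.19) or replicate 3 of the other (-0.09). Both also ended without the filter, under both scalings (-0.36 and -0.30 for HFR1, -0.20 and -0.18 for ATHB2) and with only the compared groups fitted, that of HFR1 with the pseudocount of 0.1 and that of ATHB2 without the trend. The share of lower calls was 37.6% at the local leaf and 55.2% after median-of-ratios scaling. At systemic leaf 3 it was 67.5%, against 60.1% after median-of-ratios scaling and 52.7% after quantile normalization. Along the 3WT chain in control light PHYA was lower than in the local leaf at systemic leaf 1 (-0.16) and systemic leaf 3 (-0.21).

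Other positions in control light gave few calls. At systemic leaf 1 of the 3WT chain PIF1 (-0.24) and PIF4 (-0.13) were also lower than in the local leaf, 3 members where 12.2% of all genes were called, and PHYA alone was called at systemic leaf 3 (10.4%). The PIF1 call was lost without any of the 6 libraries (-0.25 to -0.22) and the PIF4 call without any of them other than local replicate 3 (-0.14 to -0.11). Neither held without the filter or without the trend. The PIF1 call also ended with the pseudocount of 0.1, and the PIF4 call under quantile normalization (-0.12) and with only the compared groups fitted. In the mixed chain PHYA (-0.11) and PIF3 (-0.29) were lower at systemic leaf 1 (21.6%). The PHYA call needed replicates 1 and 3 of both groups (-0.11 to -0.09 without one), and the PIF3 call every library but replicate 1 of systemic leaf 1 (-0.32 to -0.25). Both ended under both scalings (-0.06 and -0.07 for PHYA, -0.25 in each for PIF3), and that of PIF3 without the filter. At systemic leaf 3 HFR1 (-0.35) and PIF7 (-0.18) were lower (24.4%). HFR1 lost its call without replicate 2 or 3 of either group (-0.34 to -0.25). PIF7 lost its own without any local replicate (-0.18) or without the library that stood apart (-0.07). Both calls also ended under both scalings, at -0.31 and -0.27 for HFR1 and -0.12 in each for PIF7, and with only the compared groups fitted. That of HFR1 ended with the pseudocount of 0.1 and without the filter as well. At systemic leaves 1 and 3 of the mixed chain 63.8% and 75.4% of all calls were lower, against 42.9% and 52.4% after median-of-ratios scaling.

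In plants that touched without light stress, after 1 h of contact 3 of 10 members were called against separate plants, where 14.7% of all genes were, and PIF5 was the firmest of them. It rose from 93.9, 97.5 and 98.9 to 122, 117 and 120 FPKM (0.31, SE 0.038; adjusted p = 0.000181), with no overlap. After 1 week it was at 111, 108 and 104 FPKM, between the other groups. That was 0.16 above separate plants, a call lost without separate replicate 1 or 1-week replicate 1 or 2 (0.14 to 0.15), without the trend and with only the compared groups fitted. It was also 0.15 below 1 h, a change of -0.15 whose call was lost without 1 h replicate 1 or 3 or 1-week replicate 3 (-0.15 to -0.12) and without the trend.

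HFR1 and ATHB2 also moved with contact. HFR1 was at 7.63, 7.88 and 8.33 FPKM in separate plants, 7.12, 5.24 and 5.33 after 1 h and 10.3, 10.5 and 9.99 after 1 week. The value after 1 week was 0.33 above separate plants and did not pass the test (adjusted p = 0.0542), although no groups overlapped. The rise from 1 h to 1 week was 0.72 (SE 0.10; adjusted p = 0.000422), or 1.74 times the mean FPKM. The lower value at 1 h (-0.39; adjusted p = 0.0279) was no longer called without any 1 of the separate plants' libraries or without 1 h replicate 2 or 3 (-0.41 to -0.32), nor without the filter or with only the compared groups fitted. ATHB2 rose from 10.8, 11.4 and 11.5 FPKM to 14.3, 16.5 and 13.0 after 1 h and 13.5, 14.1 and 16.4 after 1 week, 0.35 in each comparison, and touching plants were above all separate ones. Both ATHB2 calls were lost without any 1 of the separate plants' libraries. The 1 h call was also lost without 1 h replicate 1 or 2 (0.26 to 0.36 over all 5 fits) and the 1 week call without 1 week replicate 2 or 3 (0.27 to 0.37). Neither held without the filter or without the trend, and the 1 week call was lost under quantile normalization (0.28). The 1 h and 1 week comparisons share the separate plants.

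PHYA rose with 1 week of contact, from 22.0, 19.2 and 20.6 to 23.4, 25.6 and 24.4 FPKM (0.24; adjusted p = 0.0243), one of 3 members called in that comparison, where 14.8% of all genes were. This call was lost without replicate 2 or 3 of either group (0.19 to 0.24), under quantile normalization (0.19) and with only the compared groups fitted. Between 1 h and 1 week 5 members were called (22.1% of all genes), with HFR1, PHYA (0.22) and PIF4 (0.16) higher and PIF5 and PIF7 (-0.22) lower. PIF4 went from 95.7, 89.6 and 93.0 to 105, 103 and 103 FPKM and kept its call when any 1 library was left out. The PHYA call was lost without any 1 h library or 1 week replicate 2 or 3 (0.19 to 0.23), and the PIF7 call without replicate 2 or 3 of either group (-0.23 to -0.16), without the filter and without the trend. PHYB, PIF1, PIF3 and PAR1 passed no test of contact, with changes between -0.26 and 0.27.

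**Figure D3:**
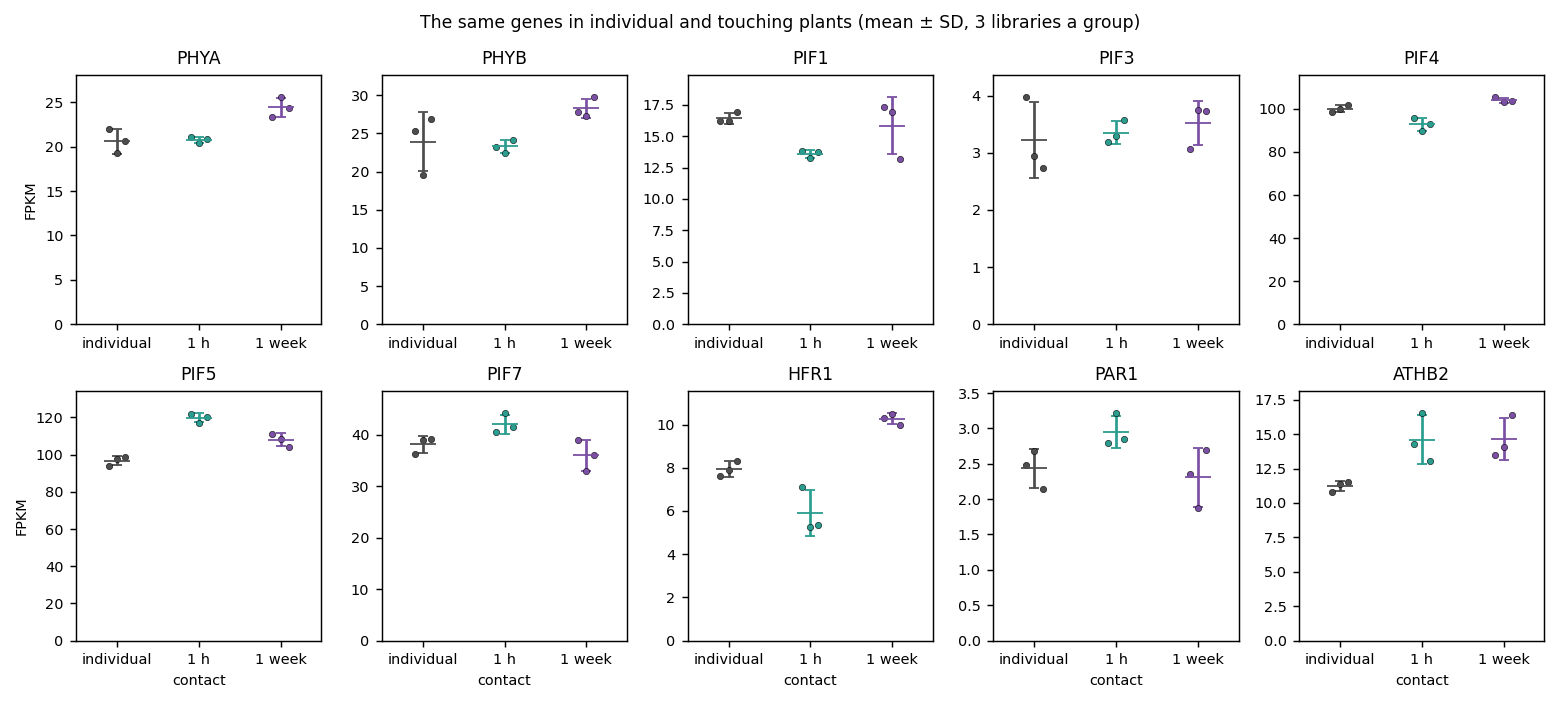
FPKM of the 10 genes (y axes, from 0) in separate plants (individual) and after 1 h and 1 week of touching (x axes). Points are libraries, ticks are means and bars are SD (n = 3); PIF5 peaks at 120 FPKM after 1 h, and HFR1 has its lowest mean after 1 h (5.90 FPKM) and its highest after 1 week (10.3 FPKM).

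Other genes of light signalling were taken as 8 lists of 56 genes, 48 of which were tested in the chain table. In the lit leaf of the 3WT chain 12 were called higher and 27 lower, and in that of the mixed chain 12 and 28. Lower calls were 45.3% and 48.9% of all genes there, and higher calls 14.0% and 13.6%. The median change of the tested listed genes was -0.162 and -0.189, and that of all genes was -0.163 and -0.187. The medians thus lay close together, but in each direction a larger share of the listed genes than of all genes was called. That difference in shares was not tested. Lower calls made up 76.3% and 78.2% of all calls as deposited, against 51.0% and 50.6% after median-of-ratios scaling. Of 8 other photoreceptors 7 were lower in both chains, among them the blue light receptor CRY2 (-0.54 and -0.58), PHYD (-0.54 in the 3WT chain) and the UV-B receptor UVR8 (-0.69 in the mixed chain). FHY1, which carries phytochrome A into the nucleus, was at -0.87 and -1.02. PKS1, a substrate of phytochrome kinase activity, was at -0.84 and -0.92, and AT2G16365 at -0.58 in the mixed chain. Among the relatives of ATHB2, HAT2 and HAT3 were at -0.58 and -0.60 in the 3WT chain, and HB4, at 0.301 against 1.12 FPKM, was at -0.70 in the other. Counted by list, 3 of 4 such relatives were lower in the 3WT chain and 4 of 4 in the other, and 3 of 4 genes of phytochrome A import and 5 of 6 phytochrome B partners were lower in both. No PIF relative was lower in either chain, of 2 tested.

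The branch of COP1, SPA proteins and HY5, which acts downstream of photoreceptors, had 8 of 12 members higher and 3 lower in the lit leaf of the 3WT chain, and 7 higher and 4 lower in the other. Of all genes, 14.0% and 13.6% were called higher there. HY5 rose from 2.99 to 6.62 FPKM (0.94) and HYH from 14.5 to 31.4 (1.07) in the 3WT chain. Both are bZIP transcription factors of light-driven development. The B-box gene BBX21 was lower in both chains (-0.79 and -0.62), and BBX22 in the mixed chain (-0.77). Among growth genes that PIFs are known to activate, the auxin response gene IAA29 fell from 6.43 to 1.43 FPKM (-1.62) and by -1.39 in the other chain, while IAA19 rose (0.64 and 0.67). The auxin synthesis gene TAA1 (-0.57 and -0.65) and the auxin carrier PIN3 (-0.59 in the 3WT chain) were lower, and the cytokinin oxidase CKX5 was higher in the mixed chain (0.56). Of 7 tested growth genes 4 were lower in each chain, where 45.3% and 48.9% of all genes were called lower. Of the DELLA proteins, repressors of gibberellin responses, GAI was lower (-0.75 and -0.57), and RGL1 (0.54) and RGL3 (0.87) were higher in the mixed chain.

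**Figure D4:**
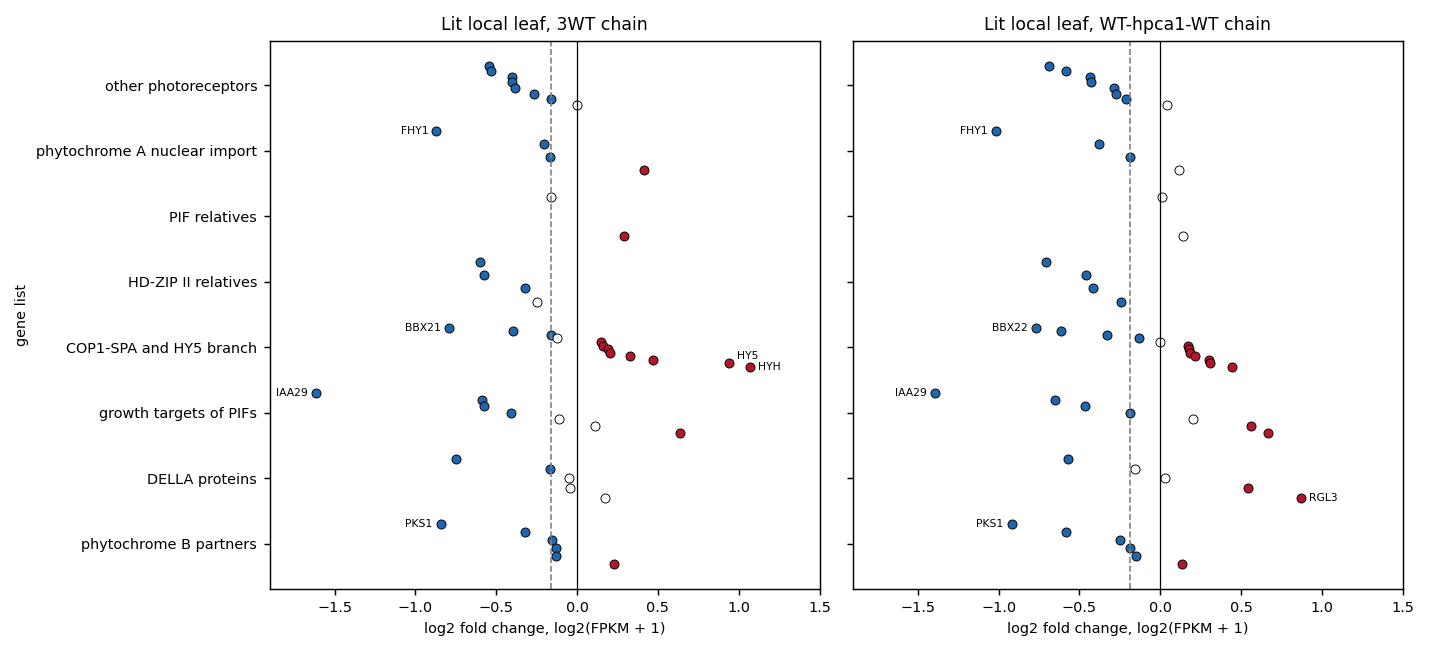
Log2 fold change in the lit local leaf (x axis, log2(FPKM + 1) scale) of the tested genes of each list (y axis) in the 3WT chain (left) and the mixed chain (right). Each point is 1 gene, red when called higher, blue when called lower and white when not called; the dashed line is the median of all genes (-0.163 and -0.187), and called genes with a change of at least 0.75 either way are named.

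In systemic leaves of the 3WT chain 16 of 48 tested listed genes were called higher and 6 lower at systemic leaf 1, where 14.8% of all genes were called. At systemic leaf 2 these were 8 and 21 (41.2% of all genes were called, 32.7% lower), and at systemic leaf 3 they were 11 and 13 (23.0%, 14.1% lower). Lower calls made up 79.3% and 61.6% of all calls at these 2 leaves, against 51% and 51.8% after median-of-ratios scaling. IAA29 was lower at systemic leaf 2 (-1.13) and systemic leaf 3 (-0.61), as was IAA19 (-0.67 and -0.50). BBX22 was lower at both (-0.56 each), and HAT1 (-0.58) at systemic leaf 2. FHL, a partner of FHY1, was lower there too (-0.53), a call lost without control replicate 3 (-0.40) or elevated-light replicate 3 (-0.45) and under quantile normalization (-0.41). CKX5 (-0.61) and RGL3 (-0.81) were lower at systemic leaf 1, and RGL3 was higher at systemic leaf 2 (0.53). The mixed chain gave 10 and 17 of 48 (29.5% of all genes were called), 6 and 6 (17.9%), and 13 and 10 (27.5%). Lower calls made up 68.4% of all calls at its systemic leaf 1, against 53.2% after median-of-ratios scaling. BBX22 was lower at its 3 systemic leaves (-0.65, -0.59 and -1.08). Its systemic leaf 1 had IAA29 (-0.77), HYH (-0.53) and IAA19 (-0.50) lower and RGL3 (1.04) and CKX5 (0.69) higher. BBX25 was higher in the hpca1-1 leaf (0.50), and at systemic leaf 3 RGL3 (0.77), RGL2 (0.56) and CKX5 (0.55) were higher and PKS1 (-0.54) lower.

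In control light HYH was higher in the mixed chain at the local leaf (0.65) and systemic leaf 1 (0.54). CKX5 was lower there at the local leaf and systemic leaves 1 and 3 (-0.74, -0.66 and -0.58), and so was RGL3 (-0.85, -0.68 and -0.56). Against the local leaf, IAA19 was higher at systemic leaf 1 of both chains (0.53, not called with only the compared groups fitted, and 0.66), and CKX5 (0.66) and RGL3 (0.55) were higher in the hpca1-1 leaf.

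With contact, 3 of 46 tested listed genes were higher and 6 lower after 1 h, where 14.7% of all genes were called, and 2 and 4 after 1 week, where 14.8% were. IAA19 rose from 8.99 to 13.3 FPKM after 1 h (0.52) and stood at 4.86 after 1 week (-0.77 against separate plants and -1.29 against 1 h). PAR2, the close relative of PAR1, was lower after 1 week (-0.67), a call lost without separate replicate 1 (-0.65) or 2 (-0.57) and without the filter, and was -0.94 against 1 h. Between 1 h and 1 week 11 of the 46 were higher and 6 lower, where 22.1% of all genes were called, with HAT1 (-0.53) and RGL1 (-0.70) among the lower. FHL was also lower (-0.80, from 1.98 to 0.750 FPKM), a call lost under 9 of 13 alternatives, among them without any 1 h library or 1 week replicate 1 or 2 (-0.90 to -0.62), without the filter, without the trend and with only the compared groups fitted.

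Across the 16 group means of the chain table, members resembled other genes to different degrees, as Pearson r of log2(FPKM + 1), a description over groups that share leaf and light. PHYA was most like AT5G44260 (0.975) and PLDDELTA (0.972), PIF1 like ZFP4 (0.966) and AT1G11060 (0.959), PIF3 like RCAR3 (0.951) and AT4G33540 (0.943) and PIF4 like POB1 (0.949) and AT5G43560 (0.947). For PAR1 these were PCAP1 (0.931) and AT2G30930 (0.927), for PHYB GAUT10 (0.906) and NRAMP3 (0.904), and for HFR1 CAT2 (0.900) and AT1G21400 (0.896). ATHB2 was most like AT4G30910 (0.884) and ABIL2 (0.879), PIF5 like HB-8 (0.852) and BTS (0.845) and PIF7 like AT3G13980 (0.828) and ZFP8 (0.819). POB1 is AT3G61600, also named LRB2, one of the listed phytochrome B partners, and the CAT2 meant here is AT1G58030. Among the members themselves the highest values were PHYA with PAR1 (0.895) and PIF1 with PIF4 (0.887), and the lowest was PHYB with ATHB2 (-0.372).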

How the data were processed

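Leaf RNA was sequenced from 57 samples in 19 groups. Per the labels' protocols, leaves of several plants were pooled for each biological repeat and libraries followed standard Illumina methods. The submitters' processing notes name Trim Galore 0.6.10, FastQC 0.12.1, HISAT2 2.2.1, SAMtools 1.18, Cufflinks 2.2.1, Cuffdiff 2.2.1 and the TAIR10 build, with no parameters or strand setting. The authors deposited FPKM values for 32824 identifiers, as separate tables for contact and for chains. Columns were matched to samples by name, where HL stands for the elevated light of the titles.

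FPKM carries no fragment totals, so depth and counting error are unknown, and no interval is given. From the steps between low values, libraries of the contact table differed in relative depth between 0.809 and 1.24, where 70.8% of library pairs lay within 0.1 (log2) of the estimate, and those of the chain table between 0.798 and 1.32 (99.6%).

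The filter kept genes that reached 1 FPKM in 3 or more of a table's libraries, which were 17177 for contact and 18735 for chains. A linear model of log2(FPKM + 1) was fitted with limma 3.58.1 (R 4.3.3) with 1 mean per group, over all libraries of a table (eBayes with trend, two-sided). P-values were adjusted by Benjamini-Hochberg over all genes of a comparison, and called means an adjusted p below 0.05. The fit was tested on simulated data. Alternatives were another pseudocount, other filters, eBayes without trend, median-of-ratios scaling, quantile normalization, fits of the compared groups alone, a replicate block and leaving out each library.

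Members were chosen by name and function, but members, lists and tests were all chosen with earlier results of these data known. All members are named. Listed genes are named when called with a change of at least 0.5, with at most 4 per direction and list, and their alternatives were added after seeing the data. For each member the 2 genes of highest r with a mean of at least 5 FPKM are named. Names matched 32539 identifiers in the TAIR10.1 annotation of RefSeq. Window sequences came from the same assembly. The deposited tables hold no coordinates.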

Additional observations from a re-analysis of the deposited data

Results flagged for a closer look

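Each result below is a light response that differed between the chains in a limma interaction test, given as the response of the mixed (WT-hpca1-WT) chain minus that of the 3WT chain (log2). At the local leaf these were PHYB at 0.24 (from -0.08 to 0.16), PHYA at 0.20 (from -0.65 to -0.45) and PIF4 at 0.18 (from -0.31 to -0.13). At systemic leaf 1 they were PHYB at 0.40 (from -0.12 to 0.28), PIF1 at -0.33 (from 0.27 to -0.06) and PHYA at -0.15 (from -0.15 to -0.31). At systemic leaf 3 they were HFR1 at 0.59 (from -0.50 to 0.09) and ATHB2 at 0.44 (from -0.50 to -0.05). Both were also called lower in the mixed chain at that leaf in control light (-0.37 and -0.22), calls lost under several alternatives.

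PHYB at both positions, PHYA at the local leaf and ATHB2 kept their calls without any single library of the 12. Without the library that stood apart, ATHB2 was at 0.31. The HFR1 call was lost without replicate 3 of either control group or replicate 1 of either elevated-light group (0.49 to 0.55). The PIF4 call was lost in 8 of 12 such fits (0.15 to 0.19), namely those without replicate 1 or 2 of either control group or replicate 1 or 3 of either elevated-light group. At systemic leaf 1 the PHYA call was lost in 5 (-0.15 to -0.13), without replicate 2 of any group or elevated-light replicate 1 of the 3WT chain, and the PIF1 call in 6 (-0.32 to -0.26), without those or control replicate 3 of the mixed chain. Both of the latter were also lost under both scaling alternatives. With only the compared groups fitted, the calls of PHYB (adjusted p = 0.0575 by limma) and PIF4 at the local leaf and of HFR1 and ATHB2 at systemic leaf 3 were lost, and that of PIF4 also without the filter and without the trend.

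Of the listed genes, 17 such differences reached 0.5 in size. At the local leaf RGL3 was at 1.04, HYH at -0.76, HY5 at -0.72 and BBX22 at -0.65. At systemic leaf 1 RGL3 was at 1.84, CKX5 at 1.30, RGL1 at 0.67, PRE1 at -0.57, HYH at -0.65, HAT1 at -0.67 and IAA19 at -0.73. At systemic leaf 2, which sets the hpca1-1 leaf beside the wild type, IAA19 was at 0.79, IAA29 at 0.75 and HAT3 at 0.52. At systemic leaf 3 CKX5 was at 0.62, BBX22 at -0.52 and FHY1 at -0.64. Some of these genes already differed between wild-type leaves of the chains in control light. HYH was at 0.65 and RGL3 at -0.85 at the local leaf. HYH was at 0.54, CKX5 at -0.66 and RGL3 at -0.68 at systemic leaf 1, and CKX5 at -0.58 at systemic leaf 3. These control differences are opposite in sign to the response differences and form part of them. The other genes named had no called control difference of 0.5 or more there.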

How the results depend on the processing

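Of 84 called member values, 44 were called under every alternative run, and 135 of 166 values not called stayed so. After median-of-ratios scaling 3 values changed sign, PIF5 in the lit leaf of the 3WT chain (0.0140) and of the mixed chain (0.188, then called, adjusted p = 0.00438 by limma), and PIF4 in the latter (0.0699).

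The number of members called moved by over 1.5 times, or to or from 0, as follows. For 1 week against separate plants it went from 3 to 1 without the trend or with quantile normalization, and for 1 week against 1 h from 5 to 3 without the trend. For systemic leaf 3 against the local leaf of the mixed chain it went from 2 to 1 with pseudocount 0.1, no filter or a filter at 5 FPKM, and to 0 with only the compared groups fitted. That last fit also moved elevated light at systemic leaf 3 of this chain from 6 to 2, the chain difference in light response at the local leaf from 3 to 1 and at systemic leaf 3 from 2 to 0, and systemic leaf 3 against the local leaf of the 3WT chain from 1 to 2. Control leaves of both chains at systemic leaf 3 went from 3 to 1 with no filter, either scaling or only those groups fitted. Systemic leaf 1 against the local leaf went from 3 to 1 in the 3WT chain with no filter or no trend, and from 2 to 1 with no filter and 0 with either scaling in the other. The difference in light response went from 2 to 1 at systemic leaf 3 with the filter at 5 FPKM, from 3 to 1 at systemic leaf 1 with median-of-ratios scaling, and from 0 to 1 at systemic leaf 2 with either scaling or only those groups fitted. Control local leaves went from 0 to 2 after median-of-ratios scaling and to 1 after quantiles were equalised.

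Leaving out 1 library, some counts moved by over 1.5 times, or to or from 0. For contact they ran from 1 to 2 (1 h against separate plants) and 0 to 2 (1 week). For 1 week against 1 h they ran from 2 to 5. Elevated light at systemic leaf 1 of the 3WT chain ran from 4 to 6. The difference in light response ran from 1 to 4, 0 to 1 and 1 to 3 at systemic leaves 1, 2 and 3. Control leaves of both chains ran from 0 to 1 (local) and 1 to 5 (systemic leaf 3). Systemic leaves 1 and 2 against local in the 3WT chain ran from 1 to 2 and 0 to 1. Systemic leaves 1 and 3 against local in the WT-hpca1-WT chain ran from 0 to 1 and 0 to 4. Other counts moved less than this. Among them, the 9 members of the lit leaf of the 3WT chain ran from 6 to 10. The 6 members for elevated light at systemic leaf 3 of the mixed chain ran from 4 to 7. All-gene counts moved by over 1.5 times in 7 of 25 comparisons, all with only the compared groups fitted. They went from 5149 to 2344 for elevated light at systemic leaf 3 of the mixed chain, from 2644 to 1458 for the difference in light response there, from 3234 to 1214 for control leaves of both chains there and from 4573 to 1652 for that leaf against local in the mixed chain. Against local in the 3WT chain they went from 2292 to 1162, 1659 to 814 and 1957 to 1142 at systemic leaves 1, 2 and 3. The cause was not tested. Of 90 listed-gene values, 86 were called under every alternative.

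Replicate numbers are shared between groups, but same-numbered libraries did not deviate together: r ran from -0.15 to 0.148, no comparison of 21 had every pair over 0.1, and in 2 every library correlated best with its own number. With the replicate block 3 members were called after 1 h of contact, as without it, no count moved by over 1.5 times, and 3 of 250 member values lost their call. These were PIF7 for 1 week against 1 h (-0.22; adjusted p = 0.0596 by limma), HFR1 for control leaves of both chains at systemic leaf 3 (-0.37; 0.0506) and PIF1 for systemic leaf 1 against local in the 3WT chain (-0.24). The 2 gained were PHYB for 1 week against 1 h (0.27) and PIF5 for the difference in light response at systemic leaf 1 (-0.21). The FHL call for 1 week against 1 h was also lost (-0.80). Depth is unknown, so it cannot be said how it limits the low members HFR1 and PAR1.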
